A study of Xenopus laevis with 79 samples.

Results

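The set described here holds 150 of the 45099 loci of a Xenopus laevis count table, chosen by a higher RNA level in whole embryos at the start of neurulation than before or after it. The members were selected on log2(mean CPM + 1) over the libraries of stages 13 and 14 (St13 and St14), minus the larger of the same quantity at St11-11.5 and at St18-19. CPM is a library-scaled count, the count of a locus relative to the library total after TMM scaling. The value ran to 8.09 in the first locus, had a median of 1.28 and was 1.01 in the last. Nothing in the whole-embryo libraries of those 4 stages is therefore a result of its own, and these levels are given as a description without a test. At the limit, the annotated tfap2c locus xelaev18043492m.g (1.0163) and cdk15.l (1.0124) lay just inside, and tcp1.s (1.0123) and dnajb6.s (1.0088) just outside.

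The study sequenced wild-type X. laevis embryos grown from in vitro fertilization, in 79 libraries. Explants of St17 were neural crest (NC, 4 libraries) and placode (Pc, 2). Explants of St14 were ANF/PPE (5), the front fold of the neural plate and the preplacodal tissue beside it in 1 piece, and further the posterior and anterior neural border (NBp, 5, and NBa, 6), the posterior and anterior neural plate (NPp, 4, and NPa, 3), the posterior and anterior nonneural ectoderm (NNEp and NNEa, 3 each), and pieces of undivided border (NB, 4) and plate (NP, 2). Explants of St12.5 were ANB/PPE (3), the front border taken in the same way, and further the posterior, anterior and lateral border (NBp, 3, NBa, 4, and NBl, 3), NPp and NPa (3 each) and undivided nonneural ectoderm (NNE, 3). Whole embryos of 8 stages between St11-11.5 and St18-19 gave 2 libraries each. An explant library came from 1 dissection of 1 embryo. An embryo number in the labels was read as naming explants of the same embryo, and some replicates of a region carry the same number. Counts over named loci were 8898486 to 18468048 per library. In bulk RNA, fewer cells of a type and less RNA per cell cannot be told apart.

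The whole embryos labelled St14 stood apart from the other whole embryos, and the rule rests on them. Both had at least 5 CPM and at least 4 times the level of every other whole embryo at 23 loci, and the same criterion found 12 loci at St11-11.5 and 0 at each of the other 6 stages. All 23 are among the 150, which the rule makes likely. Across 18037 loci, the root mean square difference on the log2(CPM + 1) scale was 0.795 to 0.855 between the libraries of St14 and St14-15. It was only 0.361 to 0.555 between St13 and St14-15, which lie further apart in development. Marker lists moved as well. The summed level of 48 skeletal muscle loci was 2012 to 2054 CPM at St12.5, 2927 to 3158 CPM at St13, 1940 to 2218 CPM at St14 and 3972 to 4062 CPM at St14-15. That of 37 immediate early and stress loci was 6050 to 6172 CPM at St13, 10409 to 10728 CPM at St14 and 5936 to 6754 CPM at St14-15, whereas the explants ranged over 5625 to 16793 CPM. In the titles, the St14 embryos carry the library numbers 26 and 27, and the other 14 whole embryos carry 35 to 48. The labels do not say what these numbers stand for, and stage and library set cannot be told apart at St14.

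**Figure D1:**
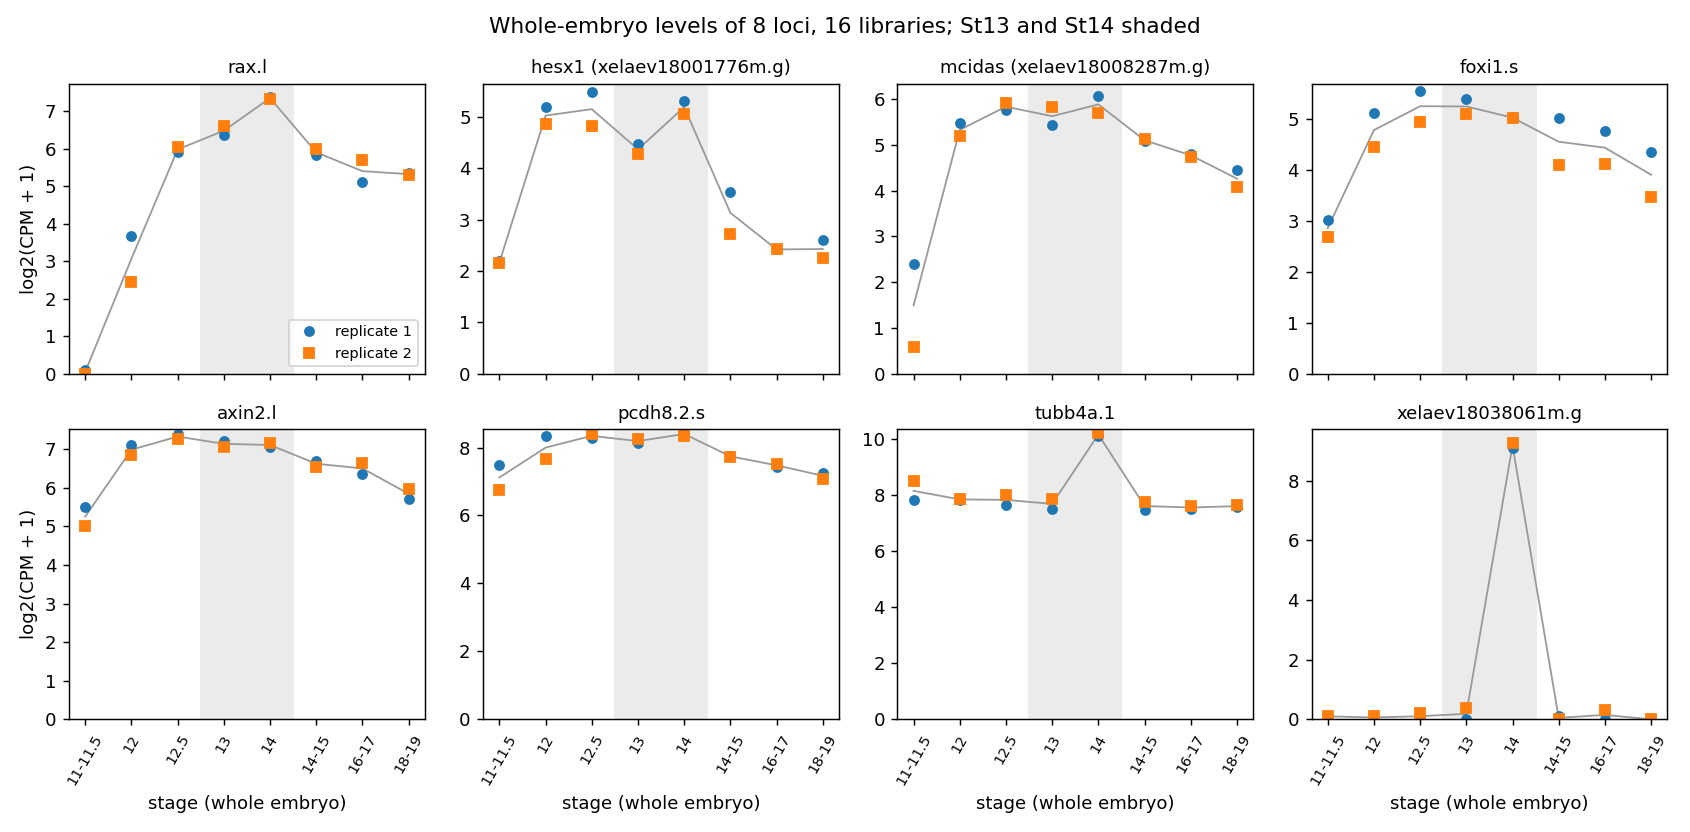
Level of 8 loci in the 16 whole-embryo libraries (y axis, log2(CPM + 1); x axis, stage; blue circles and orange squares, replicates 1 and 2; grey line, mean; shading, St13 and St14). The first 6 loci were above their St11-11.5 level by St12 to St13 and lower again after St14, whereas tubb4a.1 and xelaev18038061m.g were high at St14 alone.

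Each locus was therefore also given the same value from the St13 libraries alone. It was at least 0.5 in 68 loci, between 0 and 0.5 in 35 and 0 or less in 47, while the value from St14 alone was at least 1 in 147. The highest stage mean lay at St14 in 123 loci, at St12.5 in 16, at St13 in 8 and at St12 in 3. Among the 20 loci with the highest values, only 3 reached 0.5 from St13 alone and 15 have no gene name in the sources used here. Of the 150, 74 have no name in these sources, a count that a fuller annotation would lower. The example network in the paper's supplement matches xelaev18000896m.g to hes7.1 and xelaev18039780m.g to sgpp1, and both are counted here as unnamed. Both the L and the S copy of a gene were present for 5 genes (ccno, fzd10, hes3-like, rax and six3), and for 55 loci the other copy was in the table but not in the set.

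**Figure D2:**
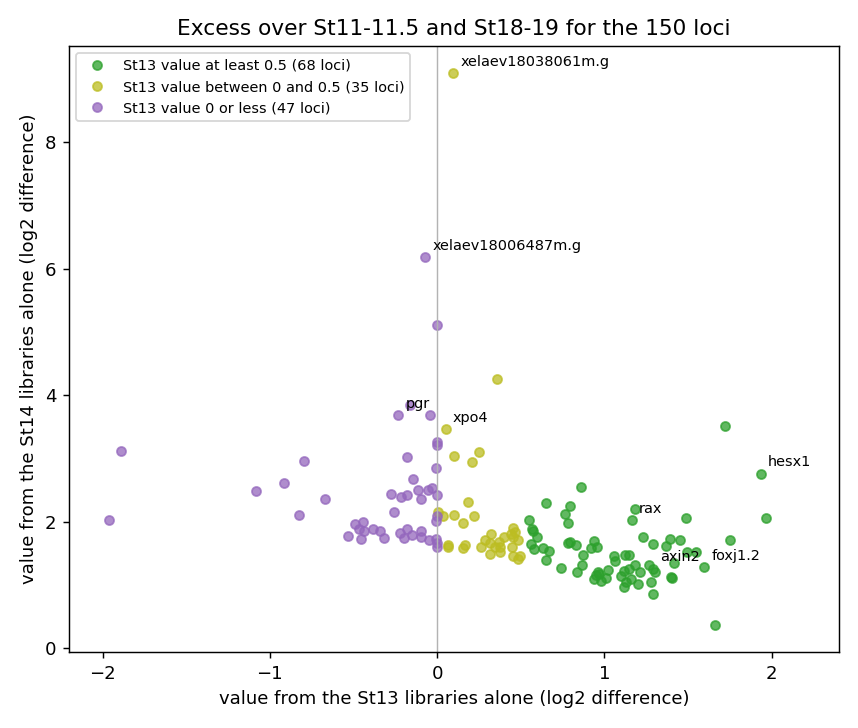
Excess over St11-11.5 and St18-19 computed from St13 alone (x axis, log2 difference) and from St14 alone (y axis, log2 difference), 1 point per locus, for the 150 loci. Loci with a St13 value of at least 0.5 (green, 68 loci) reach lower St14 values than the unnamed loci xelaev18038061m.g and xelaev18006487m.g, whose St13 values are near 0.

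In the early neurula the ectoderm is being divided into the neural plate, the neural border around it, a preplacodal rim in front and nonneural ectoderm outside. The eye field and forebrain are set apart within the anterior plate, Wnt signalling acts from the posterior and lateral side, and the future epidermis singles out the precursors of multiciliated cells and ionocytes. The regulators that begin such steps are often expressed for a shorter time than the structural genes that follow them. Of 22 gene lists, 7 had members in the set. These were forebrain and eye field with 7 of 31 loci, multiciliated cell with 5 of 39, neural border with 2 of 24, and presomitic mesoderm, ionocyte, epidermis and neural plate with 1 locus each. No member came from the lists of neural crest, placode, primary neurogenesis, Notch pathway, FGF targets, cell cycle, skeletal muscle, endoderm or the other 7. Lists were matched by gene name, so such a count covers only the names they hold and leaves out the unnamed members. Members matched to none of the lists included loci annotated as gbx2.1 and gbx2.2, dmbx1.s, tek.s and both hes3-like copies.

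The forebrain and eye field members were rax.l, rax.s, six3.l, six3.s, fezf2.l and 2 loci annotated as hesx1, all of them transcription factors, with rax needed for the eye field, six3 and fezf2 acting in forebrain, and hesx1 a repressor of the most anterior ectoderm. In whole embryos (scale of the 16 whole-embryo libraries), rax.l had 0 and 0.0756 CPM at St11-11.5, 4.48 and 11.9 at St12, 59.3 and 65.4 at St12.5, 81.8 and 95.8 at St13, 161 and 165 at St14, 55.7 and 62.4 at St14-15, 33.4 and 51.2 at St16-17, and 38.6 and 39.7 at St18-19. It was thus near 0 at St11-11.5, highest at St14 and still present at a lower level from St14-15 on. six3.l had 0.302 and 0.419 CPM at St11-11.5, 42.3 and 47.4 at St13, 43.9 and 49.3 at St14, and 16.3 and 19.9 at St18-19. Of the hesx1 loci, xelaev18001776m.g was at 28 and 35.6 CPM already at St12, at 18.3 and 21.1 at St13, at 32.4 and 38.9 at St14, and back at 3.78 and 5.05 at St18-19. In the whole embryos that the rule did not use, both rax copies were higher at St14-15 than at St12, by 2.87 ± 0.39 (rax.l) and 1.97 ± 0.27 (rax.s) on the log2 scale (SE, n = 2 each), with adjusted p = 0.000565 and 0.000621 in edgeR's quasi-likelihood test. six3.l was higher by 0.95 ± 0.20 (adjusted p = 0.00417). The hesx1 loci were lower by then, xelaev18001776m.g by -1.96 ± 0.33 (adjusted p = 0.00155) and xelaev18003045m.g by -1.25 ± 0.27 (adjusted p = 0.00514), as was fezf2.l by -0.68 ± 0.23 (adjusted p = 0.0383). The call of fezf2.l was lost in DESeq2 (adjusted p = 0.0533), with the filter of more than 0 counts (0.057 in edgeR) and without any one of 5 libraries (up to 0.183, without whole-embryo St14-15 replicate 2).

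In dissected ectoderm (scale of all 79 libraries), the forebrain members were concentrated at the front. At St14, six3.l had 107, 120, 184, 244 and 332 CPM in ANF/PPE, 0 to 11.9 CPM in NPa and at most 2.91 CPM in every other single region. The 5 ANF/PPE libraries lay above all other single-region libraries without overlap. Its S copy, six3.s, had 71.7 to 279 CPM in ANF/PPE, with 17.4 CPM in 1 NPa library and 0 and 0.149 CPM in the others. rax.l ranged widely among the ANF/PPE libraries, with 31.6, 116, 377, 600 and 770 CPM, against 31.8 CPM in 1 NPa library, 0 in the other 2 and at most 1.77 CPM elsewhere. hesx1 (xelaev18001776m.g) had 76.6 to 238 CPM in ANF/PPE, and in NPa 13.9 CPM in 1 library and 0 in the rest. All 7 were higher in ANF/PPE than in the mean of the other 6 regions (adjusted p = 1.31e-10 for six3.l, 1.50e-10 for rax.s, 3.28e-10 for six3.s, 5.73e-10 for rax.l, 3.38e-09 for hesx1 and 9.71e-09 for fezf2.l). On the whole list, 29 of 31 loci were higher there and 0 lower, with a median log2 difference of 6.50. Of all loci tested, 9.77% were called higher and 5.5% lower. Of the 3 NPa libraries, 1 carried rax.l, six3.s and hesx1 at more than 10 CPM and the rest were at or near 0.

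At St12.5 the same loci were high in ANB/PPE and in NPa. rax.l had 238, 337 and 423 CPM in ANB/PPE, 4.77, 462 and 498 CPM in NPa, 50.5 CPM in 1 NBa library, and at most 2.98 CPM in every other library. six3.l had 251 to 327 CPM in ANB/PPE and 10.0, 235 and 357 CPM in NPa. hesx1 (xelaev18001776m.g) had 156, 219 and 373 CPM in ANB/PPE and 86.8, 229 and 332 CPM in NPa. The lowest NPa value of rax.l and six3.l came in each case far below the others, while hesx1 stayed within 4 times of them. In the posterior plate and border, both taken against the anterior ones, 18 of the 24 loci of the list that were tested were lower and 0 higher. Of all loci tested, 2.36% were called lower and 5.33% higher. Across the 5 regions present at both stages, rax.l (adjusted p = 0.0087), six3.l (0.00131), hesx1 xelaev18003045m.g (3.19e-05) and fezf2.l (0.000405) were all lower at St14 than at St12.5 in edgeR's fit, with log2 differences of -2.87 ± 0.96, -2.97 ± 0.80, -3.45 ± 0.68 and -3.15 ± 0.76 (SE). Without replicate 1 of every region, rax.l no longer passed (edgeR's adjusted p = 0.09). The fit has 1 stage term for the 5 regions together. In ANF/PPE at St14, rax.l had a mean of 379 CPM with a wide spread, within the ANB/PPE range of St12.5. six3.l had a mean of 197 CPM there, below its ANB/PPE range. In whole embryos, rax.l was higher at St14 than at St12.5.

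**Figure D3:**
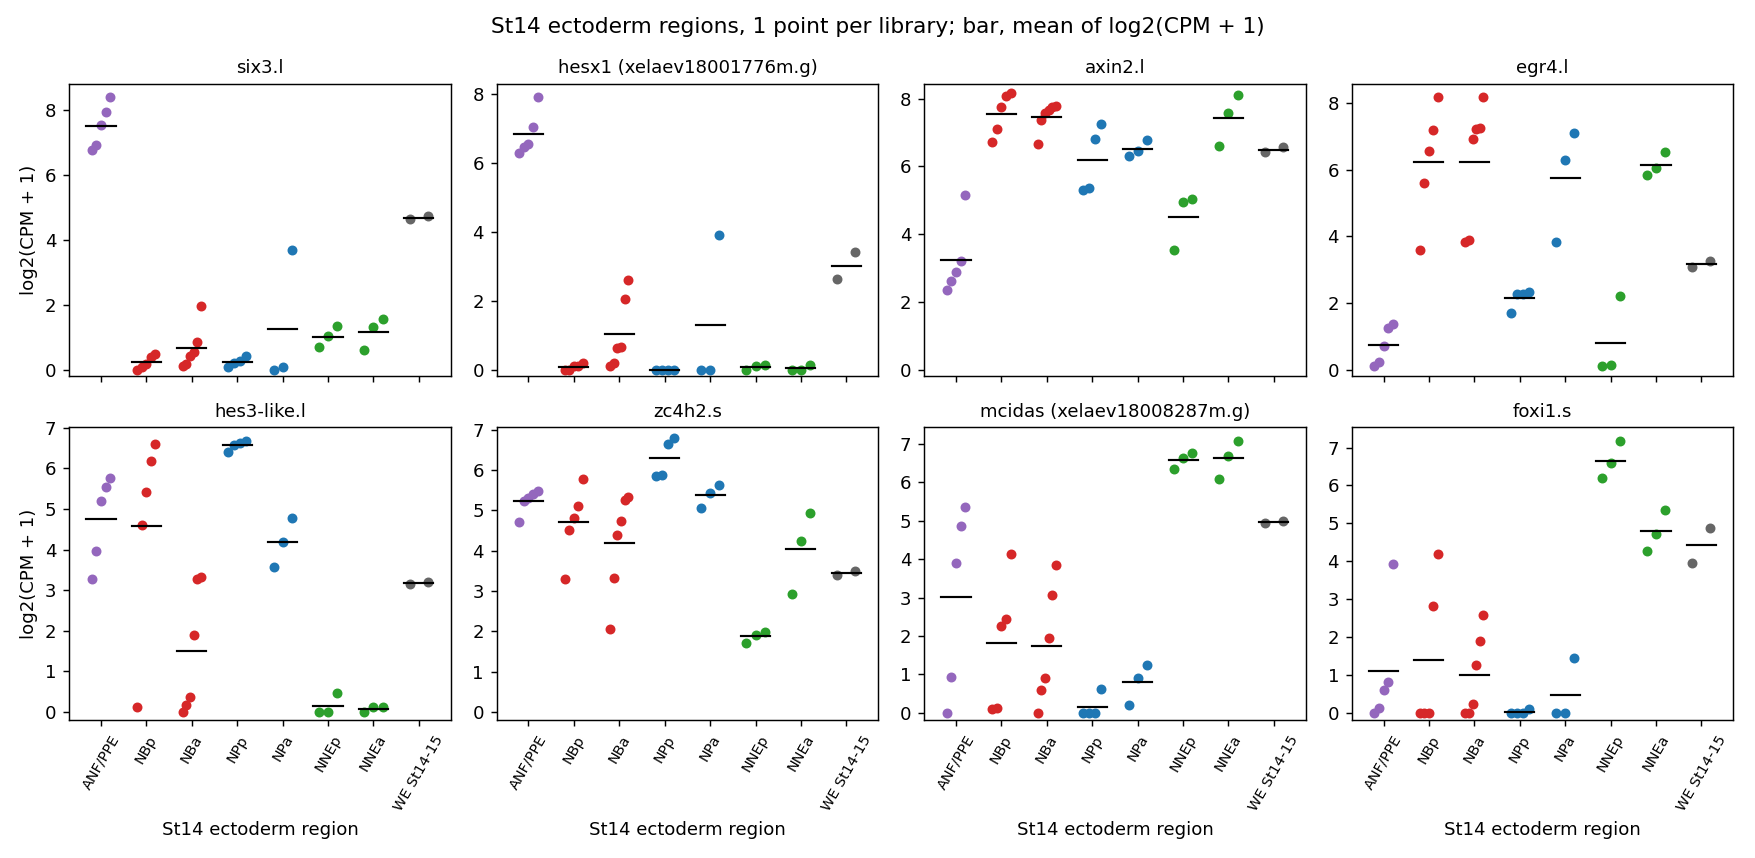
Level of 8 loci in the 7 single regions of St14 and in whole embryos of St14-15 (y axis, log2(CPM + 1); x axis, region; 1 point per library; bar, mean of the points). six3.l and hesx1 are high in ANF/PPE, hes3-like.l and zc4h2.s in NPp, and mcidas and foxi1.s in the nonneural pieces. hes3-like.l and zc4h2.s are also present in ANF/PPE, with means of 31.7 and 37.1 CPM. axin2.l and egr4.l are high in border and in NNEa, egr4.l also in NPa, and both are low in ANF/PPE.

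The multiciliated cell members were 2 loci annotated as mcidas (multicilin, which starts the programme of these cells), ccno.l and ccno.s (cyclin O, needed for their centriole amplification) and foxj1.2.s (a forkhead factor related to the motile cilium regulator foxj1). In whole embryos, mcidas (xelaev18008287m.g) had 0.489 and 4.31 CPM at St11-11.5, 35.4 and 43.6 at St12, 53.2 and 59.4 at St12.5, 42.1 and 55.8 at St13, 51.3 and 66 at St14, 33.0 and 33.8 at St14-15, and 16.0 and 20.8 at St18-19. The St13 and St14 libraries overlapped, and so did those of St12.5. At St12.5 it had 222, 294 and 296 CPM in NNE, 26.9 to 62.3 CPM in NBl, 14.5 to 72.8 CPM in ANB/PPE, at most 3.76 CPM in NBa and at most 0.239 CPM in NBp, NPa and NPp. foxj1.2.s had 0.119 to 0.477 CPM in the plate and 33.9, 36.9 and 37.3 CPM in NNE. ccno.l had 1.31 to 6.02 CPM in the plate and 130, 150 and 161 CPM in NNE, a log2 difference of -5.67 ± 0.45 (SE; adjusted p = 1.94e-09). All 5 loci were lower in the St12.5 plate than in NNE, with no overlap. The share of all loci without overlap was not counted. At St14, mcidas had 0 to 1.37 CPM in the plate and 67.5 to 135 CPM in the 6 nonneural libraries, and ccno.l had 0.297 to 2.08 CPM in the plate and 20.6 to 62.7 CPM in nonneural ectoderm (adjusted p = 2.61e-05 and 1.45e-05). Of the list, 33 of 39 loci were lower and 3 higher in the plate at St12.5, against 20.9% and 21.4% of all loci tested. At St14, 29 of its loci were lower and 4 higher, against 22% and 24.8% of all loci tested.

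Between St14-15 and St12 in whole embryos, 23 of its 39 loci were higher at St14-15 and 6 lower, with a median log2 difference of 1.40. Of all loci tested, 29.1% were called higher and 24.9% lower. Of the members, mcidas xelaev18010956m.g was higher at St14-15 by 0.58 ± 0.20 (SE, n = 2 each, adjusted p = 0.036), and the other 4 did not pass the test. That call was lost with all 16 whole-embryo libraries in 1 fit (edgeR's adjusted p = 0.314) and without any one of 6 libraries (up to 0.194, without whole-embryo St12 replicate 2).

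foxi1.s, the forkhead factor that specifies ionocytes in Xenopus epidermis, had 5.45 and 7.11 CPM in whole embryos at St11-11.5, 33.0 and 41 at St13, 31.2 and 31.7 at St14, and 10.0 and 19.3 at St18-19. At St12.5 it had at most 0.309 CPM in the plate and 109, 164 and 234 CPM in NNE. At St14 it had 0 to 1.70 CPM in the plate, and 71.7, 95 and 144 CPM in NNEp with 18.3, 25.4 and 40.0 CPM in NNEa (plate against nonneural, adjusted p = 0.000139). It was the only one of 15 ionocyte loci in the set. On the list, 12 of 13 tested loci were lower in the St14 plate, against 22% of all loci tested. In whole embryos, 12 of 13 were higher at St14-15 than at St12, against 29.1% of all loci tested. The annotated krt18 locus loc100493614.l, a keratin, had 0 to 1.55 CPM in the St14 plate and 12.7 to 50.1 CPM in nonneural ectoderm (adjusted p = 3.87e-05), and was higher at St14-15 than at St12 by 1.40 ± 0.27 (adjusted p = 0.00315). tfap2c (xelaev18043492m.g), an AP-2 factor of border and epidermis, had 0.955 to 16.8 CPM in the St12.5 plate and 262, 286 and 331 CPM in NNE, a log2 difference of -5.94 ± 0.32 (adjusted p = 4.00e-11). In NBa at St14 it reached 278 to 479 CPM.

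Wnt signalling was not among the 22 lists, and the loci of this paragraph were put together by known function. Of them, kremen2.l and sfrp1.l were added after their values were seen. The group is not a full list of the members that act in this pathway. fzd10 is a receptor, axin2 a target and feedback inhibitor, kremen2 a co-receptor of the inhibitor Dkk, and sfrp1 a secreted antagonist. In whole embryos, fzd10.l had 47.9 and 52.7 CPM at St11-11.5, 185 and 200 at St12.5, 126 and 142 at St13, 164 and 179 at St14, and 53.6 and 54.7 at St18-19. axin2.l had 31.4 and 44.3 CPM at St11-11.5, 153 and 168 at St12.5, 133 and 148 at St13, 133 and 142 at St14, and 51.7 and 61.9 at St18-19. Both were therefore highest at St12.5, before the stages of the rule. At St14-15, fzd10.l was lower than at St12 by -0.70 ± 0.11 and kremen2.l by -0.82 ± 0.25 on the log2 scale (SE, n = 2 each, adjusted p = 0.00126 and 0.0235). The call of kremen2.l was lost without St12 replicate 2 (edgeR's adjusted p = 0.0736) or St14-15 replicate 2 (0.149).

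Of these loci, axin2.l, both fzd10 copies and kremen2.l were low in the anterior fold. sfrp1.l had 0 to 2.55 CPM there and 0 to 3.95 CPM in the other single regions. The low level holds for the loci named and not for Wnt members in general. lypd6.s, which was left out of the group, had a higher mean in ANF/PPE than in NBa at St14. The mean of amer1.s, also left out, was only slightly lower in ANF/PPE than in NBa. At St14, axin2.l had 4.14, 5.09, 6.45, 8.23 and 34.8 CPM in ANF/PPE, 101 to 284 CPM in the 11 border libraries, 38.3 to 150 CPM in the plate, 95.6 to 276 CPM in NNEa and 10.7 to 31.9 CPM in NNEp. Its ANF/PPE level was below the other regions by -3.09 ± 0.47 (adjusted p = 2.76e-05), and its border level above plate and nonneural by 1.36 ± 0.31 (adjusted p = 0.00297). fzd10.l had 6.62 to 27.6 CPM in ANF/PPE and 37.7 to 353 CPM in the other single regions, with no overlap (-3.03 ± 0.44, adjusted p = 1.62e-05), and fzd10.s did likewise (-2.99 ± 0.45, adjusted p = 2.73e-05). kremen2.l had 0 to 1.96 CPM in ANF/PPE and 31.4 to 107 CPM in NBp. At St12.5, fzd10.l was higher in the posterior than in the anterior plate and border by 2.76 ± 0.43 (adjusted p = 0.000133), with 94 to 319 CPM against 1.62 to 162 CPM.

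egr4.l is a zinc finger factor of the early growth response family. At St14 it had 11.0 to 288 CPM in NBp, 13.2 to 287 CPM in NBa, 2.27 to 4.07 CPM in NPp, 13.3 to 137 CPM in NPa, 0.0757 to 3.59 CPM in NNEp and 56.7 to 90.8 CPM in NNEa. The border was higher than plate and nonneural by 3.32 ± 0.56 (adjusted p = 0.000194). Posterior pieces were lower than anterior ones at St14 by -3.46 ± 0.61 (adjusted p = 0.000399) and higher at St12.5 by 1.56 ± 0.38 (adjusted p = 0.00975), where NPp and NBp had 7.31 to 34.3 CPM and NPa and NBa 1.08 to 17.0 CPM. On the border list, 20 of 24 loci were higher in the St14 border and 0 lower, against 13.6% and 7.81% of all loci tested.

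Further members differed in place. hes3-like.l, a Hes family repressor, had 83.7, 94.5, 98.1 and 101 CPM in NPp at St14, 10.9 to 26.4 CPM in NPa and at most 0.378 CPM in the 6 nonneural libraries (adjusted p = 5.80e-06 for plate against nonneural). zc4h2.s, a zinc finger protein of neural tissue, had 32.3 to 110 CPM in the plate and 2.27 to 29.4 CPM in nonneural ectoderm, a log2 difference of 3.10 ± 0.45 (adjusted p = 4.96e-06), and 47.7 to 359 CPM against 4.06 to 10.2 CPM at St12.5 (3.96 ± 0.42, adjusted p = 1.10e-07). Neither was limited to the plate, as the ANF/PPE means at St14 were 31.7 CPM for hes3-like.l and 37.1 CPM for zc4h2.s. olig3.s, a bHLH factor, lay at the anterior border, with 0.283 to 21.1 CPM in NBp and 0.703 to 232 CPM in NBa at St14, and was lower in posterior than in anterior pieces by -5.72 ± 0.92 (adjusted p = 0.000153). lypd6.s was lower in posterior pieces too, by -1.95 ± 0.27 (adjusted p = 2.07e-05 in edgeR), and reached 35.2 CPM in ANF/PPE. lrat.s, which esterifies retinol, fell in whole embryos to 4.35 and 4.43 CPM at St14-15, against 12.1 and 13.2 CPM at St12 (-1.52 ± 0.21, adjusted p = 0.000575).

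Some members were lower in every single-region ectoderm library of St14 than in whole embryos of St14-15. pcdh8.2.s, a protocadherin and the only member from the presomitic mesoderm list, had 0.145 to 16.0 CPM in the 29 single-region libraries of St14 and 194 CPM in both St14-15 whole embryos (-6.95 ± 0.72 on the log2 scale, adjusted p = 2.62e-08). sfrp1.l had 0 to 3.95 CPM in the same explants and 19.5 and 22.6 CPM in the embryos (adjusted p = 8.40e-07). acaa2.s, a mitochondrial thiolase, had 3.53 to 45.9 CPM in the explants and 91 and 117 CPM in the embryos (-3.60 ± 0.44, adjusted p = 5.16e-07). The test sets a mean over the 7 regions against whole embryos, so a locus of 1 region can be called lower. rax.s was so called (adjusted p = 2.77e-07 in edgeR), with a mean of 200 CPM in ANF/PPE and 38.8 CPM in these embryos. In 1 NPp library of St12.5, pcdh8.2.s reached 160 CPM and sfrp1.l 31.0 CPM. The summed level of the 33 presomitic mesoderm loci ran over 433 to 1580 CPM in the NPp libraries of St12.5, against 2037 to 2052 CPM in whole embryos of that stage, and their part in these values was not tested. In Pc at St17, pcdh8.2.s had 82.6 and 182 CPM, against 0.145 to 12.7 CPM in ANF/PPE at St14 (adjusted p = 0.00154), and acaa2.s 116 and 137 CPM, against 5.47 to 45.9 CPM (adjusted p = 0.00545). The presomitic list summed to 776 and 1216 CPM in Pc and 259 to 486 CPM in ANF/PPE, with 2 of its 33 loci at 0 in both Pc libraries and none at 0 throughout ANF/PPE. The endoderm list of 34 loci summed to 748 and 761 CPM in Pc and 102 to 353 CPM in ANF/PPE, with 7 and 6 loci at 0. Their part in the result was not tested.

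Over the set, held-out whole embryos gave fewer calls than the table as a whole. St12 and St14-15 lie on either side of the peak that the rule selects. A locus that rises and falls can thus differ little between them, so the lower share is not a result about the members. Members with few counts in these embryos were not tested, and only 15 of the 47 with a St13 value of 0 or less were. Between St14-15 and St12, 13 of the 112 members tested were higher (11.6%) and 22 lower (19.6%), while 29.1% and 24.9% of all 21898 loci tested were called in these directions. With the run of library numbers as a replicate block the members called were 21 higher and 35 lower, and over all loci 34.5% and 30.8%. Left out singly, whole-embryo St14-15 replicate 1 brought the higher calls to 7 (4969 over all loci, against 6379 with it) and whole-embryo St14-15 replicate 2 the lower calls to 12 (3937, against 5455). Between St16-17 and St14-15, which shares the St14-15 libraries with the first comparison, edgeR called 0 of all loci (0.0%) and 0 members, as did DESeq2 and limma-voom. At an unadjusted p under 0.05, 0 members were higher and 6 lower.

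In St14 ectoderm, 136 members were tested. Any difference among the 7 regions was called for 82 (60.3%), against 56% of all loci tested. In the plate against nonneural ectoderm, 17 were higher and 34 lower (background 24.8% and 22%). In the border against both, 29 were higher and 5 lower (background 13.6% and 7.81%). With the embryo as a replicate block these became 9 (6.72%) and 3 (2.24%), with 5.65% and 3.88% of all loci called, and limma-voom called 9 higher (6.62%), below its 10.6% of all loci. Without NBp replicate 5 the higher calls were 17 (2116 over all loci, against 3118 with it). Without NBa replicate 2 or NBp replicate 2 the lower calls were 8, with 2299 or 2095 over all loci in place of 1786. NBa replicate 1 and NBp replicates 1, 3 and 5 carry the prefix B100 in their titles. The plate and nonneural libraries of this comparison all carry B108. The labels do not say what the prefix stands for, and border and prefix cannot be fully told apart here. In ANF/PPE against the other regions, 20 were higher and 8 lower (background 9.77% and 5.5%). In posterior against anterior pieces, 7 were higher and 16 lower (background 3.49% and 4.84%). The 7 became 1 with the embryo block (0.746%, below the 2.01% of all loci) and 1 to 4 when any of 12 single libraries was left out, the lowest without NNEa replicate 3, where the calls over all loci also fell to 589, against 797 with it. The highest regional mean lay in NPa for 2 of the 136 (1.47%, against 13.2% of all loci), in NPp for 21, in NBp for 19, in NBa for 24, in ANF/PPE for 22, in NNEp for 26 and in NNEa for 22. Against whole embryos of St14-15, 22 were higher in ectoderm and 28 lower (background 13.1% and 21.0%). Here and at St12.5 the ectoderm side is a mean over the 7 regions on the log scale. A locus high in 1 region only can thus be called lower. Without whole-embryo St14-15 replicate 1 or 2 the 22 became 8 or 12, and the calls over all loci 886 or 1280 in place of 3003. DESeq2 called 32 higher and 23 lower, the opposite balance. Its shares over all loci are not given here, so this turn is not a result about the members.

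At St12.5, 123 members were tested. In the plate against NNE, 17 were higher and 47 lower (background 21.4% and 20.9%), with a median log2 difference of -0.54 for members and 0.23 for all loci. The highest mean was in NNE for 50 of them (40.7%, against 25.9% of all loci), and in ANB/PPE for 17. In posterior against anterior pieces, 14 were higher and 14 lower (background 5.33% and 2.36%). Against whole embryos of the same stage, 13 were higher in ectoderm and 53 lower (background 14.5% and 17.3%, or 10.2% and 20.1% with RLE scaling, which gave 11 and 56 members), with medians of -0.89 for members and 0.03 for all loci. Without whole-embryo St12.5 replicate 1 or 2 these were 5 or 6 higher and 32 or 33 lower, with 499 or 1267 higher and 1529 or 1989 lower over all loci in place of 3135 and 3735.

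Between the stages, in the 5 regions sampled at both, 56 of 135 members were higher at St14 than at St12.5 and 26 lower (background 38.4% and 31.2%), with a median log2 difference of 0.70 for members and 0.14 for all loci. Later, in NC at St17 against NBa at St14, 2 of 134 members were higher and 18 lower (background 10.2% and 7.98%), with medians of -0.69 for members and 0.03 for all loci. The 18 became 5, 8 or 7 without NC replicate 1, 3 or 4, and without NC replicate 1 the 2 became 1. Over all loci the lower calls were then 1067, 1065 or 991 in place of 1744. NC replicate 1 and NBa replicate 1 carry the title prefix B100, and the other NC and NBa libraries B108. fzd10.l fell to 35 to 59.8 CPM in NC, against 48.3 to 225 CPM in NBa (-1.61 ± 0.46, adjusted p = 0.0252), a call lost without NC replicate 1, 2 or 3 or NBa replicate 5, with edgeR's adjusted p of 0.0531 to 0.0715. dynll1.s, a dynein light chain, had 97.0 to 128 CPM in NC and 159 to 282 CPM in NBa, with no overlap (-1.05 ± 0.18, adjusted p = 0.0016). In Pc at St17 against ANF/PPE at St14, 18 were higher and 26 lower (background 18.9% and 12.1%). Without Pc replicate 1 or 2 the 18 became 5 or 8 and the 26 became 11 or 9, with 2677 or 2091 higher and 818 or 542 lower over all loci in place of 4121 and 2639. limma-voom called 28 higher and 13 lower, the opposite balance, again without its shares over all loci. six3.l fell to 2.51 and 4.72 CPM in Pc, against 107 to 332 CPM in ANF/PPE (adjusted p = 0.00113). These pieces differ in place and extent as well as in stage.

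The loci with the highest values behaved differently. xelaev18038061m.g, an unnamed locus, had 549 and 613 CPM in the whole embryos of St14 and 0 to 0.295 CPM in the other 14. In St14 explants it was present in some embryos and near 0 in others, and its level also varied between the pieces of 1 embryo. It had 107 to 2506 CPM in the 5 libraries of embryo 11, 22.4 to 454 CPM in the 3 of embryo 12 and 107 and 145 CPM in the 2 of embryo 2, but at most 0.615 CPM in the 16 libraries of embryos 10, 13 and 14. All 3 embryos of St12.5 (4, 5 and 7) stayed at or below 0.416 CPM. The locus was not confined to St14, as its mean in NC at St17 was 153 CPM (SD 182, n = 4). In Pc at St17 the mean was 0.198 CPM (n = 2). A second unnamed locus, xelaev18006487m.g, had 91.6 and 93 CPM in whole embryos of St14 and at most 0.489 CPM in the others, and in explants it was high in embryos 2, 13 and 14 (79.4 to 121 CPM) and at most 4.64 CPM in embryos 10, 11 and 12. Both loci were thus high in embryo 2 and in the St14 whole embryos, both low in embryo 10 and in the embryos of St12.5, and 1 of the 2 was high in each of embryos 11, 12, 13 and 14. pgr.l, the progesterone receptor, had 19.6 and 26.9 CPM in whole embryos of St14, at most 1.13 CPM in the others, 34.7 and 35.8 CPM in embryo 2 and 0 to 1.90 CPM in embryo 12.

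**Figure D4:**
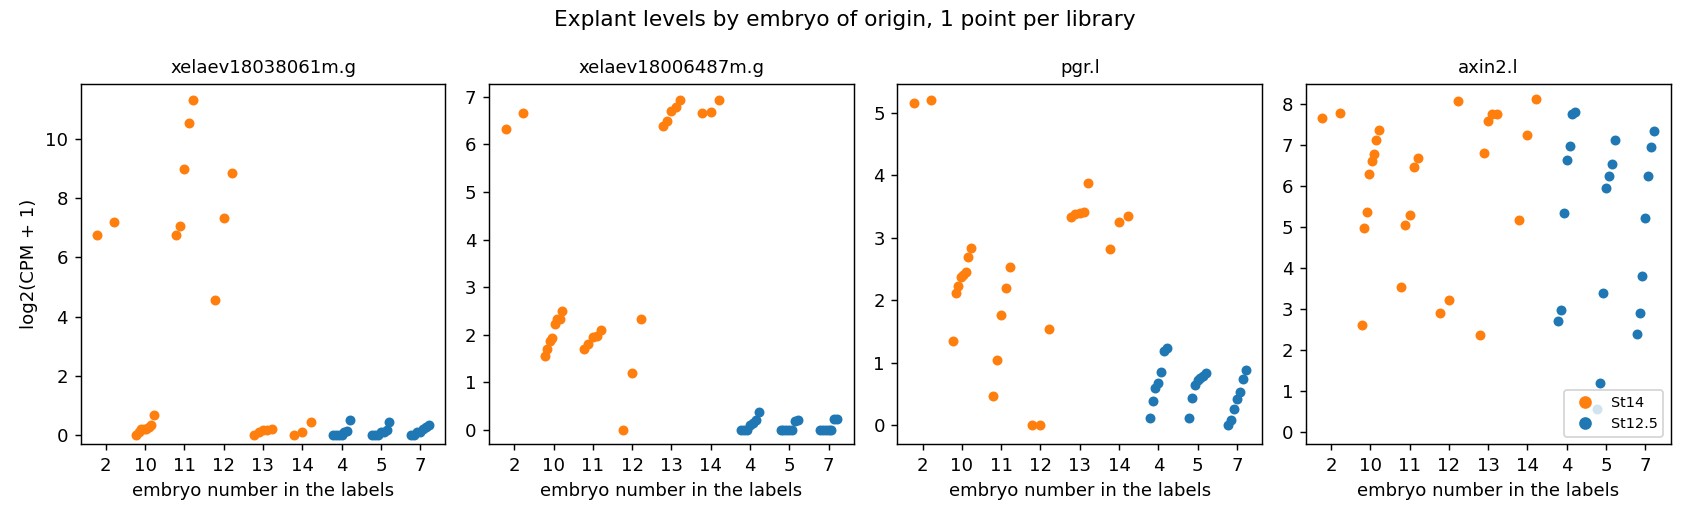
Level of 4 loci in the explant libraries with an embryo number (y axis, log2(CPM + 1); x axis, embryo, those of St14 in orange and of St12.5 in blue; 1 point per library). xelaev18038061m.g is high in embryos 2, 11 and 12, xelaev18006487m.g in embryos 2, 13 and 14, and axin2.l spreads within every embryo with 3 or more libraries.

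A test of the embryo, with region in the fit, called 41 of 134 members at St14 (30.6%, background 9.49%), with adjusted p = 1.55e-08 for xelaev18038061m.g and 1.12e-06 for xelaev18006487m.g. This test was added after the data were seen. Without NBa replicate 5 the count of members fell, and so did the calls over all loci. That fit leaves embryo 2 with NBa replicate 6 only. At St12.5 it called 21 of 118 (17.8%, background 7.55%), and 8 of the 114 members tested at both stages were called at both. The 5 embryos of St14 with at least 3 libraries were also compared in pairs. For 6 members, an embryo had at least 5 CPM in every library and at least 4 times every library of another embryo. Of all 21963 loci, 73 met this criterion, which does not ask for a difference from all the other embryos.

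Other loci with high levels in the St14 whole embryos differed among themselves in the explants. tubb4a.1, a beta-tubulin, had 1091 and 1167 CPM in whole embryos of St14 and 174 to 355 CPM in the others, while explants had 357 to 1224 CPM at every stage. Ectoderm of St14 was above whole embryos of St14-15 by 1.78 ± 0.30 (adjusted p = 3.86e-05), and ectoderm of St12.5 above whole embryos of St12.5 by 1.52 ± 0.24 (adjusted p = 6.98e-05). Tubulin copies are near-identical, so the share of reads that this locus received is uncertain. xpo4.s, an exportin, had 578 and 616 CPM at St14 in whole embryos. In the other stages it had 7.41 to 27.7 CPM in the libraries numbered 35 to 41 and 37.9 to 204 CPM in those numbered 42 to 48, without overlap. In explants it had 15.9 to 60.7 CPM at St14 and 3.01 to 57.9 CPM at St12.5, a rise of 1.52 ± 0.17 over the matched regions (adjusted p = 7.70e-10). unc13d.l had 33.8 and 50.1 CPM in whole embryos of St14, but in explants of that stage at most 0.151 CPM outside 2 NBa libraries (11.7 and 13.2 CPM) and 1 NBp library (16.6 CPM).

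The calls were also counted by the St13 value of the members. Of all loci tested, 56% were called for a difference among St14 regions and 9.49% for the embryo at St14. Among members with a St13 value of at least 0.5, a difference among St14 regions was called for 60 of 67 (89.6%) and an effect of the embryo for 11 of 67 (16.4%). Among those at 0 or less, a regional difference was called for 10 of 36 (27.8%) and an embryo effect for 22 of 36 (61.1%). Members between 0 and 0.5 had 12 of 33 (36.4%) and 8 of 31 (25.8%). Of the first group, 36 of 68 (52.9%) were lower in the St12.5 plate than in NNE and 45 of 68 (66.2%) lower in St12.5 ectoderm than in whole embryos, and 10 of 65 (15.4%) were higher in ectoderm at St14 than at St12.5. Of those at 0 or less, 5 of 27 (18.5%), 2 of 27 (7.41%) and 27 of 39 (69.2%) were. Of all loci tested, 20.9%, 17.3% and 38.4% were called in these directions. These groups were formed after the data were seen, from the libraries of the rule, and the shares are a description. As the ectoderm side is a mean over 7 regions, calls against whole embryos do not separate regional restriction from a source outside ectoderm.

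**Figure D5:**
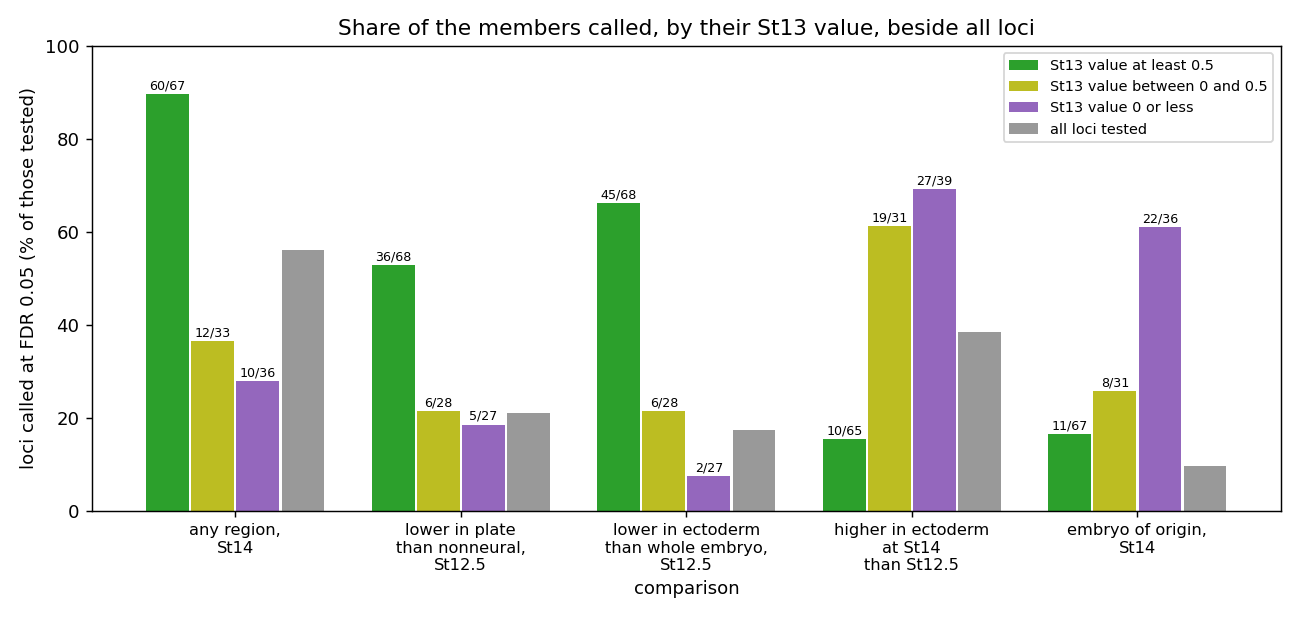
Share of members called at a false discovery rate of 0.05 (y axis, % of those tested) in 5 comparisons (x axis), for members with a St13 value of at least 0.5 (green), between 0 and 0.5 (olive) and 0 or less (purple), beside all loci tested (grey). Numbers over the bars are called over tested. Regional calls reach 89.6% in green and 27.8% in purple, embryo calls 16.4% and 61.1%.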

How the data were processed

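Poly(A) RNA of whole embryos and of ectoderm explants was sequenced in 79 stranded libraries. The authors aligned the read pairs to the X. laevis genome with TopHat 2.0.14, excluded pairs that mapped to several places, and deposited raw HTSeq counts for each of 45099 gene models, of which 39055 had counts. The 5 HTSeq summary entries in the table held 15.7 to 25.5% of the counts of a library and were dropped. No pair of libraries was identical (0 pairs).

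Samples were grouped by the labels. CPM was computed with TMM scaling, over the 16 whole-embryo libraries for the time courses and over all 79 for explants, so levels of the same library differ slightly between the scales. Tests used edgeR 4.0.16 (quasi-likelihood F test, R 4.3.3) on loci that exceeded 10 counts in 2 or more of the libraries fitted, with Benjamini-Hochberg adjustment over all loci tested and a threshold of 0.05. The held-out whole-embryo fit used St12, St12.5, St14-15 and St16-17. DESeq2 1.42.0, limma-voom 3.58.1, RLE scaling, other filters, a replicate block and leaving out libraries were tried as alternatives. The selection rule and the first comparison of each main fit were tried on simulated data. The rises planted for the rule were larger than those of most members. The embryo test, the block fits and the other comparisons were not simulated. An adjusted p sets a difference against the spread between these libraries, which the main fits take as independent. Some replicates of a St14 region carry the same embryo number: NPa 1 and 2, NNEp 2 and 3, NBa 5 and 6, and ANF/PPE 2 and 3. The paper, however, reports that the replicates of a region were taken from separate embryos and clutches. The labels do not settle this.

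Explants with the same embryo number in the labels were taken to come from the same animal. Their deviations from the region means had a median correlation of 0.148 over 51 pairs at St14, against -0.023 for other pairs. At St12.5 it was 0.207 over 63 pairs, against -0.108. The library numbers in the titles fall into 2 runs, 35 to 41 and 42 to 48, over the whole embryos other than St14. The run differences of any 2 of the held-out stages correlated at 0.416 to 0.69, so the run was used as a block too, a choice made after the data were seen.

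The members and the 22 gene lists were chosen with earlier results of these data known. Loci were named by a rule: the first 20 members, up to 4 members of each list, the 3 members with the smallest p in each direction of each test at 5 CPM or more, the loci at the limit of the set, pairs of L and S copies, and those closest to the mean profile. Unnamed loci were counted, and 2 of them printed. fezf2.l, kremen2.l and sfrp1.l were named after their values were seen. The gbx2 loci and dmbx1.s were added as examples and are not counted among the named loci. An annotation name of an unnamed locus (hesx1, mcidas, tfap2c, krt18, gbx2.1, gbx2.2) is the best match given with the annotation. Copies of a gene can share reads, so near-identical loci are uncertain. Promoter and protein sequences were not used here.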

Additional observations from a re-analysis of the deposited data

Results flagged for a closer look

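Of 147 groups of 4 to 6 libraries checked over the loci described above, 25 held 1 library far from the rest. Some such libraries arise by chance, and how many was not measured on these data. The same libraries recur across loci, so the groups are not independent and an excess over chance was not tested. All values are CPM on the scale of all 79 libraries.

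Anterior genes and the unnamed locus xelaev18006487m.g stood out in single libraries of border and crest. rax.l was at 50.49 in NBa St12.5 replicate 1, against 0.07 to 2.98 in the other replicates, and at 25.41 in NC St17 replicate 2, against 0 to 0.25. In NC St17 replicate 2, hesx1 (xelaev18001776m.g) was at 1.19, against 0.13 to 0.25, and xelaev18006487m.g at 46.35, against 0 in the rest. In NBa St14 replicate 1, six3.l was at 2.91, against 0.08 to 0.82, and fezf2.l at 3.41, against 0 to 0.49.

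Genes of the nonneural ectoderm stood out in NBp St14 replicate 2, with mcidas (xelaev18008287m.g) at 16.57, against 0.07 to 4.46, and foxj1.2.s at 3.23, against 0 to 0.89. In ANF/PPE St14 replicate 2, foxi1.s was at 14.1, against 0 to 0.75, and in NB St14 replicate 2 foxj1.2.s was at 0.49, against 1.27 to 1.42.

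NPp St14 replicate 4 was set apart for 4 loci. It had ccno.s at 3.95, against 1.15 to 1.52, egr4.l at 2.27, against 3.79 to 4.07, pcdh8.2.s at 15.95, against 0.23 to 1.34, and sfrp1.l at 3.95, against 0.15 to 0.55. pcdh8.2.s was also at 12.71 in ANF/PPE St14 replicate 2, against 0.15 to 0.41, and at 6.44 in NBp St14 replicate 1, against 0.27 to 1.52. sfrp1.l was at 1.31 in NBa St14 replicate 6, against 0 to 0.31, and at 1.51 in NC St17 replicate 4, against 0.41 to 0.56. In that NC library fzd10.l was at 59.82, against 35.02 to 37.97, and in ANF/PPE St14 replicate 5 axin2.l was at 34.85, against 4.14 to 8.23.

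xelaev18038061m.g was set apart in 4 regions of St14, at 157.8 in ANF/PPE replicate 2, against 0.15 to 22.41, at 501.01 in NBa replicate 3, against 0 to 144.77, at 454.36 in NBp replicate 3, against 0 to 125.58, and at 132.42 in NPp replicate 2, against 0 to 0.14. tubb4a.1 was at 1035.67 in NBp St14 replicate 5, against 588.74 to 648.84.

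egr4.l passed the test in opposite directions at the 2 stages, with a log2 difference of posterior from anterior pieces of -3.46 at St14 and 1.56 at St12.5; the difference between the stages was not tested. In the undivided NB and NP libraries of St14, which entered no test, 68 members had more than 3 counts in each of the 6 libraries.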

How the results depend on the processing

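No called value of a named locus changed sign. The balance of higher and lower member calls turned in Pc against ANF/PPE with limma-voom (28 and 13, in place of 18 and 26) and in St14 ectoderm against whole embryos with DESeq2 (32 and 23, in place of 22 and 28). Of the 150 members, 93 were chosen again with a pseudocount of 5, 57 from the St13 libraries alone and 39 from those of St14-15 alone; the other settings shared 117 to 146. For the counts of members called, limma-voom gave 9 in place of 14 lower in posterior pieces at St12.5, 9 in place of 29 higher and 9 in place of 5 lower in the St14 border, 3 in place of 7 higher in posterior pieces at St14, and 4 in place of 2 higher in NC. DESeq2 gave 8 lower in the border and 40 lower in Pc. Most of these counts, and the turned balances, stand without the share of all loci called. They are therefore not results about the members. A filter of more than 50 counts left 7 in place of 13 higher in St12.5 ectoderm than in whole embryos.

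With the embryo as replicate block, the pairing gave 9 higher and 3 lower in the St14 border and 1 higher in posterior pieces. It also ended the calls of foxj1.2.s in the border (log2 difference -2.02, adjusted p = 0.154 in edgeR) and of 3 unnamed loci, and no other call of a named locus. With the run of library numbers as replicate block, 21 members were higher and 35 lower at St14-15 than at St12.

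Leaving out 1 library at a time, the members higher and lower at St14-15 than at St12 ran over 7 to 19 and 12 to 28, and over 12 to 25 and 21 to 41 with the run block, where 0 to 1 were lower at St16-17 than at St14-15. St12.5 ectoderm against whole embryos had 5 to 14 higher and 32 to 56 lower, St14 ectoderm against whole embryos 8 to 25 higher, the St14 border 17 to 31 higher and 4 to 8 lower, and St14 posterior pieces 1 to 7 higher. The embryo test at St14 called 26 to 49 members. NC against NBa had 1 to 3 higher and 5 to 22 lower, and Pc against ANF/PPE 5 to 24 higher and 9 to 28 lower. With 2 libraries in Pc and in each whole-embryo stage, the remaining library was assumed to vary like the other groups. The causes of these changes were not tested. Calls of named loci were lost under at least 1 setting for 11 pairs of locus and comparison and held for 97. With 2 libraries a stage, a missing call says little about a member, and loci near 1 CPM rest on few counts.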
